A study of Mus musculus with 4 samples.

Results

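The integrated stress response was described through 10 of its regulators, ATF4, ATF3, ATF5, DDIT3, DDIT4, TRIB3, CHAC1, SESN2, NUPR1 and PPP1R15A. They were chosen by symbol, all 10 were found among the 23258 genes of the table, and all 10 passed the filter on low counts. The set was drawn up with KO and WT values of these libraries known. Levels and fold changes of the 10 genes are therefore descriptive. Calls among them are counted only beside the share of all genes called, and nothing rests on those counts.

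RNA sequencing compared 2 libraries of gastric tumours from Mst4F/F UBCcre mice (KO) with 2 from wild-type mice (WT), all C57BL/6 animals of both sexes at 20 weeks. Mst4 encodes the kinase MST4, called STK26 in human, and UBCcre names a Cre recombinase driven by the broadly active ubiquitin C promoter. How the tumours arose is not given in the sources used here, nor is it said that replicates are different mice, so the spread between them may be technical. The table goes against the labels in species: every row identifier carries the human taxon number, and gene symbols follow human usage. Genes are therefore named by human symbols, KO and WT mean the libraries so labelled, and no sequence or coordinate is given because a human reference was not used here.

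Library totals lay between 18613533 and 18701250 counts in KO and between 18804535 and 30505281 counts in WT. STK26 was at 9.07 and 7.37 CPM (counts scaled to the size of the library) in KO replicates 1 and 2, against 54.2 and 54.9 CPM in WT replicates 1 and 2. The difference was smaller on the deposited length-scaled values (FPKM), at 5.22 and 5.75 in KO, against 17.23 and 17.24 in WT. WT replicate 1 stood apart. Of 16030 genes tested, 1.65% differed by over 2-fold within KO and 20.7% within WT. Of 12 gastric gland markers 11 were found, 9 of them under 1 CPM in every library, and the mucous neck cell peptide gene TFF2 was at 0 throughout. Their summed level was 80.2 to 89.5 CPM in KO and 128 to 241 CPM in WT, mostly PSCA. Of 7 leukocyte markers 6 were found, 4 of them under 1 CPM in every library. The summed level of these markers, mostly CD68, was 15.2 to 18.8 CPM in KO and 20.8 to 37.1 CPM in WT. Fibroblast markers (7 of 7 found) summed to 116 to 136 CPM in KO and 141 to 193 CPM in WT, mostly COL1A1. Of these markers 2 were under 1 CPM in every library. COL1A2 was at 0 and 0.0522 CPM in KO, against 0.102 and 0 CPM in WT. Endothelial markers (5 of 5) summed to 2.88 to 4.81 CPM in KO and 6.27 to 8.09 CPM in WT, and 2 were under 1 CPM in every library. Of 6 epithelial markers 6 were found, 2 of them under 1 CPM in every library. They summed to 1988 and 2281 CPM in KO replicates 1 and 2, against 1096 and 2794 CPM in WT replicates 1 and 2. The sum, mostly KRT8 and KRT18, was lowest in WT replicate 1, as were KRT8, KRT18 and EPCAM singly. CLDN4 was lowest in WT replicate 2, at 35.7 and 43.6 CPM in KO, against 39.2 and 29.1 CPM in WT. The 2 epithelial markers under 1 CPM, CDH1 and KRT19, were highest in WT replicate 1. KRT8, a keratin of simple epithelia, was at 1172 and 1383 CPM in KO, against 481 and 1761 CPM in WT. The part of cell makeup in the levels of the regulators was not tested.

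The integrated stress response begins when kinases that sense amino acid shortage, unfolded proteins, haem deficiency or double-stranded RNA phosphorylate the initiation factor eIF2. Bulk translation then slows, while the mRNA of the bZIP transcription factor ATF4 is translated more efficiently through its upstream open reading frames. ATF4 turns on genes of amino acid supply, further transcription factors such as CHOP (DDIT3) and ATF3, and feedback genes that end the response. Because ATF4 and ATF5 are controlled largely at translation, their mRNA levels are not a measure of their protein.

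WT replicate 1 was the highest of the 4 libraries for 9 of the 10 regulators and the lowest for ATF5. It was the highest for 40.7% of all genes tested. WT replicate 2 was the lowest library for 6 regulators, ATF4, DDIT3, DDIT4, TRIB3, CHAC1 and PPP1R15A, so that for these 6 genes both KO libraries lay between the WT libraries. This arrangement was found for 15.2% of all genes tested. In 3 regulators, ATF3, SESN2 and NUPR1, both KO values lay below both WT values, as they did for 19.1% of all genes, and 0 of the 10 showed the opposite arrangement (18.3% of all genes). The 10 genes together summed to 934 and 1002 CPM in KO replicates 1 and 2, against 1921 and 827 CPM in WT replicates 1 and 2. In bulk tissue, fewer cells of a type and less RNA per cell cannot be told apart.

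**Figure D1:**
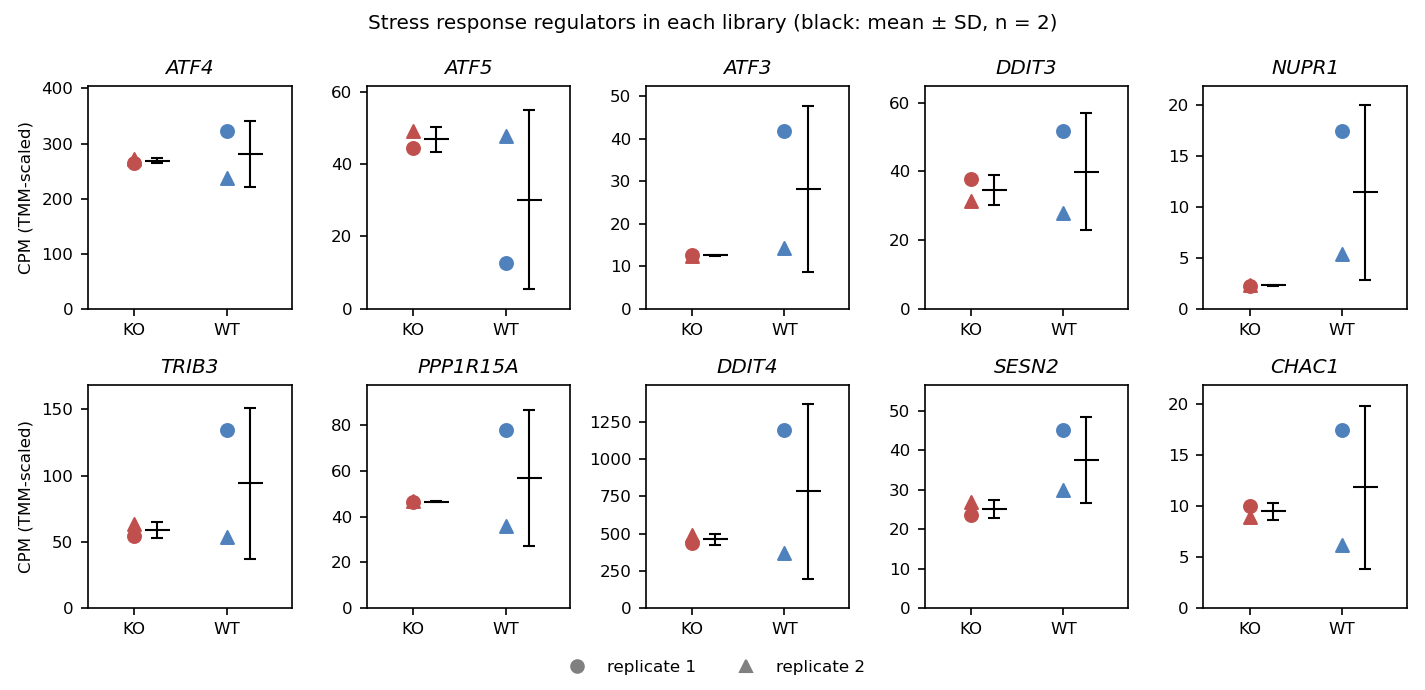
Level of each of the 10 regulators in CPM (vertical axis, from 0) in the 2 KO libraries (red) and the 2 WT libraries (blue); circles are replicate 1, triangles replicate 2, and black bars the mean ± SD of each genotype (n = 2). WT replicate 1 is the highest point in every panel except ATF5, where it is the lowest at 12.6 CPM, and the KO libraries lie close together.

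Among the transcription factors, ATF4 mRNA was abundant and nearly even. It was at 265 and 273 CPM in KO replicates 1 and 2, against 324 and 238 CPM in WT replicates 1 and 2. The KO values lay inside the WT range, and the log2 fold change of KO over WT was -0.06 (SE 0.25), the smallest of the 10 in size.

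ATF5, a bZIP factor linked to the mitochondrial stress response, was the exception to the pattern of WT replicate 1. It was at 44.4 and 49.3 CPM in KO replicates 1 and 2, against 12.6 and 47.7 CPM in WT replicates 1 and 2. WT replicate 2 fell between the KO libraries, and WT replicate 1 was 3.68-fold below WT replicate 2. The log2 fold change was 0.64 (SE 0.63) with all libraries and -0.02 (SE 0.17) without WT replicate 1.

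ATF3, a stress-induced bZIP factor that can act as a repressor, was at 12.7 and 12.4 CPM in KO replicates 1 and 2, against 41.9 and 14.4 CPM in WT replicates 1 and 2. Both KO values were lower than both WT values, but WT replicate 2 was only slightly above them. The log2 fold change of -1.17 (SE 0.53) became -0.19 (SE 0.20) without WT replicate 1.

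DDIT3 encodes CHOP, a C/EBP-family partner of ATF4 associated with cell death under prolonged stress. Its level was 37.8 and 31.5 CPM in KO replicates 1 and 2, against 51.9 and 27.8 CPM in WT replicates 1 and 2. The KO values lay between the WT values, with a log2 fold change of -0.20 (SE 0.37), and of 0.32 (SE 0.18) without WT replicate 1.

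NUPR1, a small chromatin-associated stress protein, showed the largest difference of the 10 and the only one that stayed above 2-fold without WT replicate 1. It was at 2.25 and 2.35 CPM in KO replicates 1 and 2, against 17.5 and 5.35 CPM in WT replicates 1 and 2. These values rest on 43.3 and 44.8 estimated counts in KO, against 516 and 98.9 in WT. The groups did not overlap, and the mean was 2.30 ± 0.0686 CPM in KO and 11.4 ± 8.61 CPM in WT (SD, n = 2 each). The level in KO was 4.98-fold lower (log2 fold change -2.32, SE 0.64) with all libraries and 2.32-fold lower (log2 fold change -1.21, SE 0.34) without WT replicate 1. On the deposited length-scaled values (FPKM) it was at 2.51 and 2.62 in KO, against 18.9 and 5.72 in WT.

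Both feedback genes followed ATF4 in the order of the libraries but with a wider range. TRIB3 is a pseudokinase that binds ATF4 and CHOP and restrains them. It was at 54.7 and 63.1 CPM in KO replicates 1 and 2, against 135 and 53.6 CPM in WT replicates 1 and 2. WT replicate 2 was close to KO replicate 1, and the log2 fold change was -0.68 (SE 0.47), or 0.14 (SE 0.17) without WT replicate 1. PPP1R15A (GADD34) is the inducible subunit that directs protein phosphatase 1 to eIF2 and so ends the response. It stood at 46.5 and 46.6 CPM in KO replicates 1 and 2, against 77.9 and 35.7 CPM in WT replicates 1 and 2. The KO libraries were almost identical for this gene and lay between the WT libraries, with a log2 fold change of -0.29 (SE 0.41), and of 0.38 (SE 0.18) without WT replicate 1.

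Of the effectors, DDIT4 and SESN2 both restrain the growth kinase complex mTORC1, the first through the TSC complex and the second as a leucine sensor acting on GATOR2. DDIT4 was at 436 and 488 CPM in KO replicates 1 and 2, against 1198 and 368 CPM in WT replicates 1 and 2. WT replicate 1 was 3.25-fold above WT replicate 2, and the KO libraries lay near WT replicate 2. The log2 fold change was -0.76 (SE 0.57) with all libraries and 0.33 (SE 0.14) without WT replicate 1.

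SESN2 was at 23.6 and 26.8 CPM in KO replicates 1 and 2, against 45.2 and 29.9 CPM in WT replicates 1 and 2. Both KO values lay below both WT values, and the log2 fold change was -0.58 (SE 0.30), or -0.25 (SE 0.18) without WT replicate 1. CHAC1, an enzyme that breaks down glutathione, was at 10.0 and 8.88 CPM in KO replicates 1 and 2, against 17.4 and 6.16 CPM in WT replicates 1 and 2. The KO libraries lay between the WT libraries. The log2 fold change was -0.33 (SE 0.54) with all libraries, and CHAC1 had the largest positive value of the 10, 0.62 (SE 0.24), without WT replicate 1.

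**Figure D2:**
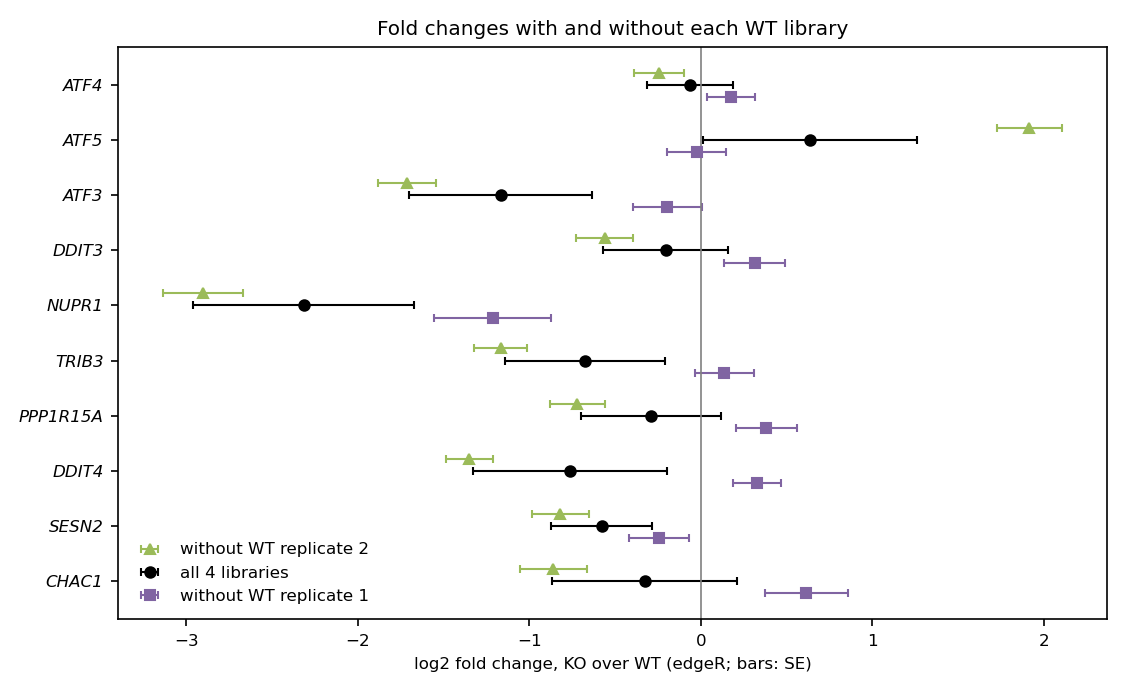
Log2 fold change of KO over WT for each regulator (horizontal axis; bars are SE) in edgeR with all 4 libraries (black circles), without WT replicate 1 (purple squares) and without WT replicate 2 (green triangles). Only ATF3, SESN2 and NUPR1 keep a negative value under all 3 fits, and NUPR1 lies furthest from 0 when WT replicate 1 is left out (-1.21).

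Across the set, the median log2 fold change was -0.45, with 9 genes lower and 1 higher in KO, against a median of -0.01 and 51.4% lower over all genes tested. Without WT replicate 1 the median was 0.16, with 4 lower and 6 higher, against 0.01 and 48.3% lower over all genes. The sign differed between these fits for 7 of the 10, 6 of which went from lower to higher in KO. The edgeR quasi-likelihood test with all libraries called 0 of the 10 at adjusted p under 0.05, as it did 0.0% of all genes. In this edgeR test the targeted gene STK26 was not called either (log2 fold change -2.73, SE 0.26, adjusted p = 0.834). The absence of a call by it therefore says little about a gene. At unadjusted p under 0.05 edgeR found 1 of the 10, NUPR1, beside 4.17% of all genes. DESeq2 called 0 of the 10, beside 0.239% of all genes, and it called STK26 (adjusted p = 3.03e-11). Without WT replicate 1 edgeR called 1 of the 10, NUPR1 as lower, beside 3.93% of all genes called lower. Without WT replicate 2 it called 8 lower (all but ATF4 and ATF5) and ATF5 higher, beside 26.1% of all genes called lower and 25.2% called higher. When a WT library is left out, the spread is estimated from the KO pair alone and leaves the difference within WT uncovered. The set was chosen on the same contrast, so its counts are not evidence beyond the values.

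The median absolute log2 difference over the 10 genes was 0.155 within KO and 1.37 within WT. Over the 11961 genes that averaged 5 CPM or more it was 0.138 within KO and 0.502 within WT. For the 10 regulators WT replicate 2 differed from KO replicates 1 and 2 by a median of 0.29 and 0.218. Of the 10 genes, 0 differed by over 2-fold within KO and 7 within WT, beside 1.65% and 20.7% of all genes tested.

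On the FPKM scale, which takes gene length into account, levels can be set side by side between genes. DDIT4 and ATF4 were the first and second in every library, at 234 and 262 FPKM for DDIT4 and 173 and 177 FPKM for ATF4 in KO replicates 1 and 2. WT replicates 1 and 2 held 648 and 191 FPKM of DDIT4, and 205 and 149 FPKM of ATF4. TRIB3 came next in every library, at 22.7 to 55.8 FPKM. In KO the next were ATF5 (18.4 and 20.7 FPKM), then DDIT3 (17.4 and 18.4 FPKM) and PPP1R15A (17.6 and 17.8 FPKM), whose values overlapped. SESN2 (6.43 and 7.19 FPKM), CHAC1 (5.66 and 5.22 FPKM) and ATF3 (5.07 and 4.94 FPKM) followed without overlap in KO, and NUPR1 was the lowest. In WT replicate 1 that order changed: ATF5 was the lowest of the 10, at 4.84 FPKM, and NUPR1 came sixth, at 18.9 FPKM.

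**Figure D3:**
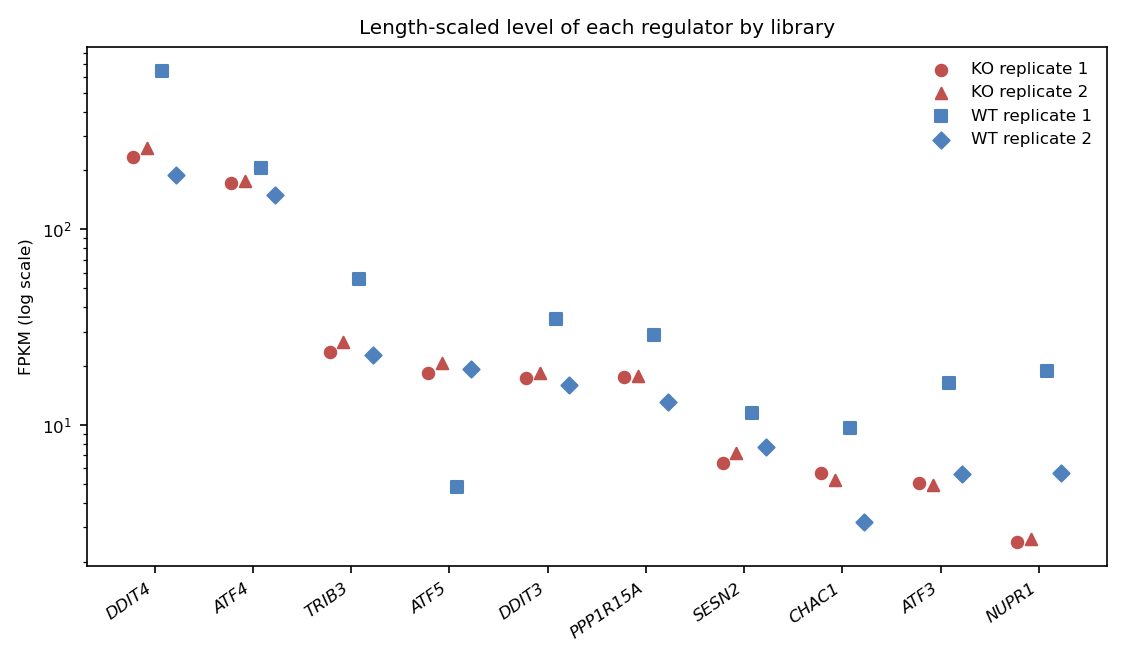
Deposited FPKM (log axis) of the 10 regulators in KO replicates 1 and 2 (red) and WT replicates 1 and 2 (blue), ordered by the KO mean. DDIT4 and ATF4 lie above 149 FPKM in all libraries, and the 4 values of NUPR1 run from 2.51 to 18.9 FPKM.

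Upstream of ATF4, the eIF2 kinases and their activators had WT replicate 1 as the lowest library by the list's median. Of 8 genes tested, 7 had a positive and 1 a negative log2 fold change, with a median of 0.11, and 0 were called by edgeR. Without WT replicate 1 the median was 0.01, with 5 positive and 3 negative values. EIF2AK4 (GCN2), which senses uncharged tRNA, was at 86.8 and 82.8 CPM in KO, against 59.5 and 83.4 CPM in WT. EIF2AK3 (PERK), the sensor of unfolded proteins in the endoplasmic reticulum, was at 26.9 and 23.4 CPM in KO, against 26.7 and 29.9 CPM in WT. The haem-regulated kinase gene EIF2AK1 was at 274 and 276 CPM in KO, against 258 and 275 CPM in WT. EIF2AK2 (PKR), the sensor of double-stranded RNA, was at 115 and 102 CPM in KO, against 65.6 and 129 CPM in WT. The groups overlapped for all 4 kinase genes. OMA1, a mitochondrial protease that relays stress to EIF2AK1, had the largest log2 fold change of the list (0.76, SE 0.38), at 31.2 and 30.6 CPM in KO, against 12.3 and 24.2 CPM in WT, without overlap.

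The list of eIF2, its exchange factor eIF2B, the separate initiation factor gene EIF2A and the constitutive phosphatase held 13 genes. Their median log2 fold change was 0.20, with 11 positive and 2 negative values and 0 calls, but -0.05 without WT replicate 1, with 4 positive and 9 negative. EIF2S1, the phosphorylated subunit, was at 151 and 133 CPM in KO, against 81.8 and 183 CPM in WT. EIF2B5, a catalytic subunit of eIF2B, was at 50.1 and 51.5 CPM in KO, against 28.6 and 56.0 CPM in WT. Both genes were lowest in WT replicate 1. EIF2S3 went the other way and was highest there, at 361 and 328 CPM in KO, against 579.5 and 452 CPM in WT. The log2 fold changes of EIF2S2 and EIF2S3, the other subunits of eIF2, were 0.07 (SE 0.28) and -0.58 (SE 0.24).

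The bZIP partners of ATF4 had a median log2 fold change of -0.48 (5 of 6 negative, 0 called), and 0.06 without WT replicate 1. CEBPB was at 110 and 137 CPM in KO, against 365 and 110 CPM in WT, and CEBPG at 39.9 and 39.8 CPM in KO, against 66.0 and 36.8 CPM in WT. Both were high in WT replicate 1 alone. CEBPD was at 12.2 and 15.9 CPM in KO, against 13.8 and 11.5 CPM in WT, and CEBPA at 10.8 and 13.1 CPM in KO, against 11.3 and 14.5 CPM in WT, with overlapping groups for each. Without WT replicate 1, JDP2, a repressor related to ATF3, was the 1 gene of the list that edgeR called, as lower in KO (log2 fold change -0.76, SE 0.17, adjusted p = 0.000511), beside 3.93% of all genes called lower. Its level was 21.4 and 21.1 CPM in KO, against 27.7 and 36.1 CPM in WT.

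Among paralogues of the regulators, 9 of 10 were found and 8 tested, with a median log2 fold change of -0.02 and 0 calls. SESN1, the p53-responsive paralogue of SESN2, was at 17.4 and 14.9 CPM in KO, against 12.6 and 22.4 CPM in WT, so it was lowest where SESN2 was highest. SESN3 was at 1.42 and 0.783 CPM in KO, against 1.32 and 0.865 CPM in WT. TRIB1 was at 35.4 and 38.8 CPM in KO, against 53.9 and 25.7 CPM in WT, while TRIB2 was at 7.13 and 7.05 CPM in KO, against 4.11 and 3.89 CPM in WT. The groups did not overlap for TRIB2, with KO higher. Both TRIB1 and TRIB2 were called higher in KO by edgeR without WT replicate 1 (log2 fold change 0.53, SE 0.18, adjusted p = 0.0482 and 0.87, SE 0.28, adjusted p = 0.0376), beside 2.54% of all genes called higher.

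Targets of ATF4 in amino acid synthesis and transport were mostly lower in both KO libraries. Both KO values lay below both WT values for 14 of 21 genes, beside 3 of 10 regulators and 19.1% of all genes; the difference between the lists was not tested. The median log2 fold change of the list was -0.70, with 20 negative values, and -0.34 without WT replicate 1, with 18 negative values. ASNS (asparagine synthetase) was at 13.8 and 9.56 CPM in KO, against 104 and 28.1 CPM in WT. SLC3A2, the heavy chain shared by several amino acid exchangers, was at 295 and 325 CPM in KO, against 1094 and 724 CPM in WT. PSAT1, of serine synthesis, was at 157 and 151 CPM in KO, against 251 and 196 CPM in WT, and the cystine transporter gene SLC7A11 at 74.8 and 63.5 CPM in KO, against 95.2 and 82.1 CPM in WT.

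The groups did not overlap for any of these 4 targets, whereas ATF4 itself overlapped. In this list edgeR called 0 of 21 with all libraries, beside 0.0% of all genes, and DESeq2 called 3 lower, ASNS (adjusted p = 0.0198), SLC3A2 (adjusted p = 0.00716) and the exchanger gene SLC7A5 (adjusted p = 2e-05), beside 0.202% of all genes. Without WT replicate 1 edgeR called 7 of the 21 lower and 0 higher, beside 3.93% and 2.54% of all genes. Among ATF4 targets of tRNA charging, 7 of 13 had both KO values below both WT values, beside 19.1% of all genes, with a median log2 fold change of -0.37 with all libraries and -0.29 without WT replicate 1. WARS, the tryptophanyl-tRNA synthetase gene, was at 139 and 135 CPM in KO, against 200 and 246 CPM in WT, and was 1 of 3 genes of the list called lower without WT replicate 1 (adjusted p = 3.88e-07, edgeR), with EPRS and MARS, beside 3.93% of all genes.

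For other ATF4 and CHOP targets WT replicate 1 was again the highest library by the median. Their median log2 fold change was -1.02 over 12 tested genes, with 0 calls, and 0.08 without WT replicate 1. Without that library 7 of the 12 had a positive and 5 a negative log2 fold change. For BBC3 and ERO1A the direction depended on the WT library left out. BBC3 was at 7.13 and 10.1 CPM in KO, against 22.5 and 4.6 CPM in WT. Its log2 fold change was 0.91 (SE 0.26) without WT replicate 1 and -1.36 (SE 0.19) without WT replicate 2. For ERO1A these values were 0.53 (SE 0.16) and -1.76 (SE 0.14). STC2, a secreted glycoprotein, was at 36.3 and 33.2 CPM in KO, against 210 and 27.1 CPM in WT. VLDLR, a lipoprotein receptor, was at 3.09 and 2.56 CPM in KO, against 17.2 and 2.76 CPM in WT, and the oxidase gene ERO1A at 98.4 and 88.7 CPM in KO, against 323 and 64.7 CPM in WT. In each of these only WT replicate 1 stood above KO. GDF15, a stress-induced cytokine, was at 47.3 and 55.9 CPM in KO, against 166 and 71.8 CPM in WT, with no overlap.

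In the other arms of the unfolded protein response, those of IRE1 and ATF6, 12 of 15 genes had both KO values below both WT values, beside 19.1% of all genes. All 15 had a negative log2 fold change (median -0.43), 14 of 15 without WT replicate 1 (median -0.25), and 0 were called with all libraries. HSPA5 (BiP), the main chaperone of the endoplasmic reticulum, was at 110 and 107 CPM in KO, against 228 and 155 CPM in WT. DNAJB9 was at 17.8 and 16.1 CPM in KO, against 25.7 and 24.5 CPM in WT, and XBP1, the factor activated by IRE1, at 90.8 and 95.4 CPM in KO, against 132 and 117 CPM in WT. Without WT replicate 1 edgeR called HSPA5, DNAJC3 and MANF lower (adjusted p = 0.0113, 0.0196 and 0.0154), beside 3.93% of all genes called lower, with the spread taken from the KO pair alone.

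**Figure D4:**
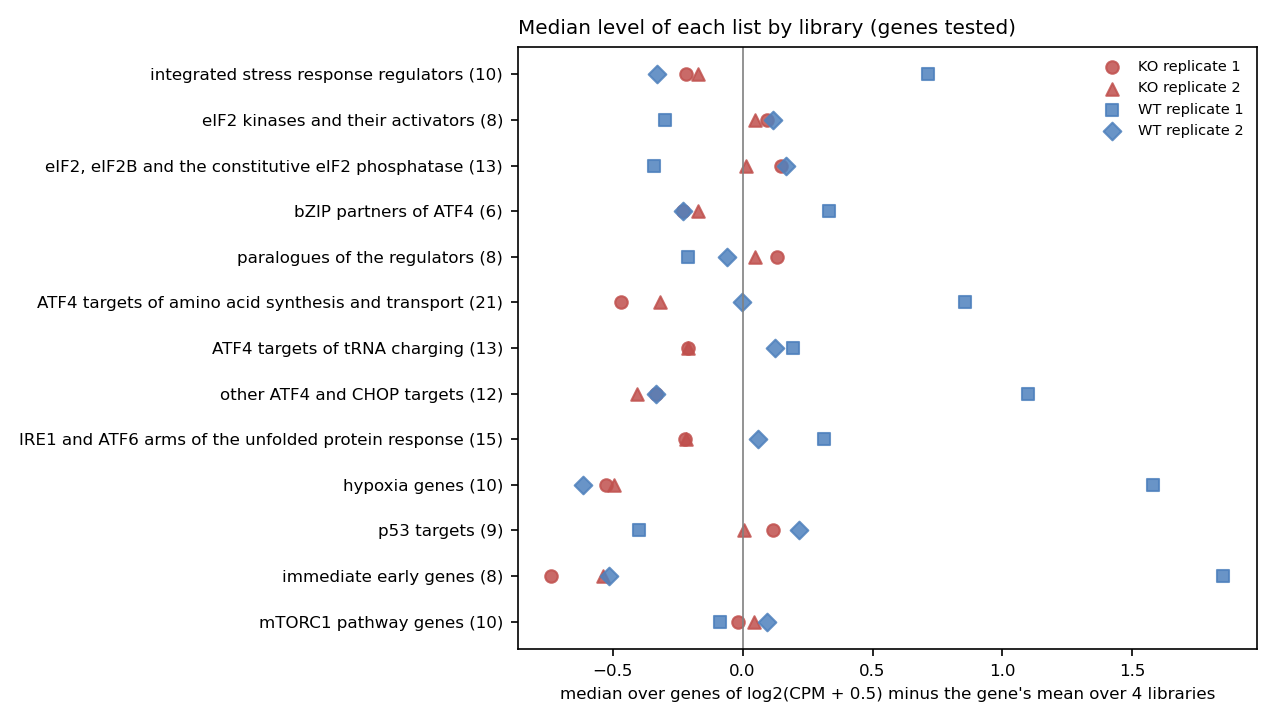
Median over the tested genes of each list (number in brackets) of log2(CPM + 0.5) minus the gene's mean over the 4 libraries, for KO replicates 1 and 2 (red) and WT replicates 1 and 2 (blue). For the regulators, WT replicate 1 is at 0.72 and the other libraries at -0.17 to -0.33, whereas for the amino acid genes WT replicate 2 (-0.00187) also lies above KO (-0.32 and -0.47).

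Several regulators also respond to signals other than eIF2, DDIT4 to low oxygen and ATF3 and PPP1R15A to mitogens and acute stress. Of 10 genes induced by low oxygen, 9 were over 2-fold higher in WT replicate 1 than in WT replicate 2, as DDIT4 was. The same held for 12.9% of all genes tested. The exception in the low-oxygen list was LDHA, at 2275 and 2099 CPM in KO, against 2272 and 2359 CPM in WT. The median log2 fold change of the list was -1.49 with all libraries. Without WT replicate 1 it was 0.17, with 7 positive and 3 negative values, and CA9 was at 0.51 (SE 0.17). NDRG1 was at 179 and 198 CPM in KO, against 3976 and 166 CPM in WT, and CA9 at 57.3 and 70.8 CPM in KO, against 709 and 44.9 CPM in WT. The 8 immediate early genes tested were all over 2-fold apart within WT, beside 20.7% of all genes. Their median log2 fold change was -1.82. Without WT replicate 1 it was -0.04 over 9 tested genes, with 4 positive and 5 negative values. EGR1 was at 9.22 and 10.1 CPM in KO, against 92.5 and 3.73 CPM in WT. Its log2 fold change was -2.32 (SE 1.32) with all libraries and 1.38 (SE 0.26) without WT replicate 1. FOS was at 8.96 and 10.3 CPM in KO, against 61.8 and 9.95 CPM in WT, and JUN at 18.4 and 22.2 CPM in KO, against 119 and 20.2 CPM in WT. The part of low oxygen or acute stress in the levels of the regulators was not tested.

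The other regulators, unnamed LOC gene models and symbols that read as dates were left out of a search for genes like ATF4. Among the rest of those 11961 genes, the most like it over the 4 libraries were GATAD2B, TCF19, GAS6-AS1, GOLGA2P7 and QARS. Likeness was the Euclidean distance between log2(CPM + 0.5) values centred on each gene's mean, and ran from 0.032 to 0.040 for these genes. QARS, the glutaminyl-tRNA synthetase gene, was at 179 and 186 CPM in KO, against 225 and 166 CPM in WT. With 4 libraries, many genes can lie this close.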

How the data were processed

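The authors deposited 1 table of 23258 genes with an estimated count and a length-scaled value per gene and library; HISAT2, Cufflinks and RSEM and the mouse build GRCm38.p5 are named per the submitters' processing notes, without roles or versions. The deposited length-scaled value is not named and was read as FPKM, since its columns sum to unequal totals (441772 to 452971). No source used here states the annotation, the filters or the strand setting, so reads of overlapping or antisense genes cannot be told apart.

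Estimated counts were rounded, filtered with filterByExpr, scaled by TMM and fitted over all 16030 genes left in edgeR 4.0.16 (R 4.3.3) with a quasi-likelihood test of genotype and no other term; a call is a Benjamini-Hochberg adjusted p under 0.05. The fit was also run on simulated counts with 200 genes changed. All other genes had the same mean in every library there, so that run cannot show how the fit handles WT replicate 1. SEs are the size of the log2 fold change over the root of its F statistic. CPM use the TMM-scaled totals. Alternatives were other scalings and filters, DESeq2 1.42.0, limma 3.58.1 (voom, and trend on log2(FPKM + 1) or log2(FPKM + 0.1) where FPKM averaged 1 or more), leaving out single libraries, and a replicate block. Python 3.11.15 made the tables.

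The 10 regulators and the other lists were chosen with earlier results of these data known. Named genes were the 10, STK26, some or all of the first 4 of each list and the 5 most like ATF4. Of some lists, among them p53 targets and immediate early genes, fewer than 4 genes are shown. Any further gene was picked with its values in view.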

Additional observations from a re-analysis of the deposited data

How the results depend on the processing

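With 1 library left out, edgeR called 0 to 8702 genes in all (0 without either KO library, 1065 without WT replicate 1, 8702 without WT replicate 2), the number of regulators lower in KO was 4 to 9, and their median log2 fold change was -0.839 to 0.157. The log2 fold change then ran -0.242 to 0.177 for ATF4, -1.71 to -0.194 for ATF3, -0.0245 to 1.92 for ATF5, -0.559 to 0.316 for DDIT3, -1.35 to 0.33 for DDIT4, -1.17 to 0.137 for TRIB3, -0.859 to 0.617 for CHAC1, -0.819 to -0.245 for SESN2, -2.9 to -1.21 for NUPR1 and -0.719 to 0.383 for PPP1R15A. List medians ran 0.0144 to 0.407 for eIF2 kinases, -0.531 to 0.0605 for bZIP partners, -0.00136 to 0.274 for paralogues, -0.489 to -0.288 for tRNA charging, -1.56 to 0.0752 for other ATF4 and CHOP targets, -0.542 to -0.245 for the IRE1 and ATF6 arms, -2.16 to 0.17 for hypoxia genes, -0.196 to 0.625 for p53 targets, -2.53 to -0.0417 for immediate early genes, -0.0539 to 0.413 for eIF2 and eIF2B, -0.033 to 0.128 for mTORC1 genes and -1.13 to -0.344 for amino acid genes. With all libraries, DESeq2 called 39 genes, 6 higher and 33 lower, and the other scalings, filters and limma fits called 0. On log2(FPKM + 1) and log2(FPKM + 0.1) the median was 0.182 and 0.191 for paralogues and -0.32 and -0.329 for tRNA charging. The median of the 10 regulators stayed between -0.487 and -0.354 under the 9 alternatives that keep all libraries, and 8 or 9 were lower in KO. The exception in sign was ATF4, at 0.00145 and 0.00155 on these FPKM scales. The cause of these changes was not tested, and fits without a library also rest on fewer samples.

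Libraries with the same number did not deviate together (r = -0.137 across 16030 genes), and nothing in the labels pairs them. A fit with the replicate number as a block called 10 genes, 5 in each direction, and 0 of the regulators. With crossed numbers, added after seeing the data, it called 4. The depth was 18613533 counts or more in each library, and NUPR1, with 43.3 counts in KO replicate 1, is the regulator it limits most.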

Other observations

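Targets of p53, which also induces SESN1 and SESN2, were lowest in WT replicate 1 by the list's median. Over 9 tested genes the median log2 fold change was 0.07, with 7 positive and 2 negative values and 0 called by edgeR with all libraries, and -0.20 without WT replicate 1. CDKN1A, the p21 cell cycle inhibitor, was at 252 and 284 CPM in KO, against 414 and 379 CPM in WT, and was called lower without WT replicate 1 (log2 fold change -0.50, SE 0.14, adjusted p = 0.00773, edgeR), beside 3.93% of all genes. MDM2, which degrades p53, was at 147 and 121 CPM in KO, against 78.6 and 172 CPM in WT.

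Genes of the mTORC1 pathway, which DDIT4 and SESN2 restrain, had 5 of 10 positive log2 fold changes with all libraries (median 0.05), and 4 of 10 without WT replicate 1 (median -0.03). MTOR was at 162 and 164 CPM in KO, against 108 and 168 CPM in WT, and RHEB, its activator, at 223 and 214 CPM in KO, against 230.1 and 225 CPM in WT. CASTOR1, an arginine sensor, and RRAGC, a lysosomal GTPase, were the 2 genes of the list called lower without WT replicate 1 (log2 fold change -1.29, SE 0.43, adjusted p = 0.0414 and -0.99, SE 0.17, adjusted p = 1.28e-06, edgeR), beside 3.93% of all genes.

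The transcript length implied by dividing a gene's share of counts by its FPKM differed between libraries by at most 9.02% for 9 of the regulators. For DDIT3 it was 2226 and 1749 bases in KO replicates 1 and 2, against 1443 and 1711 bases in WT replicates 1 and 2. Its KO replicates thus change order between scales, at 37.8 and 31.5 CPM but 17.4 and 18.4 FPKM. The implied length of STK26 was 1776 and 1311 bases in KO replicates 1 and 2, against 3032 and 3132 bases in WT replicates 1 and 2.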
